A study of Homo sapiens with 18 samples.

Results

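Ribosome biogenesis and nucleolar factors were followed in U251 cells, an established human glioblastoma line, after exposure to enzastaurin or to its solvent DMSO. The set is a list of 39 genes from general knowledge of the nucleolus, ordered by role: 3 subunits of RNA polymerase I, 7 nucleolar chaperones and regulators, 4 proteins of box C/D snoRNPs, 4 of box H/ACA snoRNPs, 9 factors of small subunit assembly and 12 of large subunit assembly. Each gene was read on 1 probe set, the brightest over all arrays among those annotated to that gene alone. This gave 33 genes out of 19775 genes with such a probe set, and all 33 passed the filter on level that left 12376 genes for testing. NOP56, DKC1, BOP1 and PPAN were annotated only on probe sets shared with other genes, and no probe set was named for GNL3 or EBNA1BP2, so these 6 have no value here.

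The groups were cells given enzastaurin for 4, 10 or 18 h and cells given DMSO for the same times, with 3 arrays in each of the 6 groups and 18 arrays in all. All cells grew in RPMI medium with serum, and the labels give no dose of enzastaurin, a small molecule that inhibits protein kinase C. Affymetrix HG-U133 Plus 2.0 arrays were hybridised with labelled cRNA from total RNA, and each value is a scaled intensity on a linear scale. Array medians lay between 99.2 and 125.9, and the number of arrays limits the precision. Intensities of different probe sets are not comparable with each other, so levels are compared only within a gene. The glioma markers VIM, NES, CD44 and SOX2 were above the level filter, while the astroglial markers GFAP and S100B were below it with medians of 17.0 and 11.1. The leukocyte marker CD3E and the endothelial marker PECAM1 were above it, with medians of 112.7 and 305.1. The other 7 leukocyte, endothelial and epithelial markers with a value were below it. Summed intensities in single arrays of enzastaurin and of DMSO were 102 to 368 and 82 to 268 for 3 leukocyte markers, 312 to 443 and 321 to 436 for 3 endothelial markers, and 70 to 232 and 60 to 288 for 3 epithelial markers. The part of other cells in the results was not tested.

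Ribosomes are built in the nucleolus, where RNA polymerase I transcribes the large precursor of the ribosomal RNAs. Small nucleolar RNPs guide chemical changes on that precursor: box C/D particles direct ribose methylation and box H/ACA particles direct pseudouridylation. Large sets of assembly factors then fold, cut and export the small and large subunits. The transcription factor MYC is a well known activator of these genes and binds E-boxes, of which CACGTG is the canonical form. The study's title names MYC, and the comparison here sets the MYC mRNA beside the mRNAs of the nucleolar genes in the same arrays.

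Promoters of 8 members called higher at 10 or 18 h are shown, 5 with the canonical E-box and 3 without it, and these were picked after the values and the matches were seen. The windows run from 250 bases before to 50 after the annotated start in RefSeq, build GRCh38.p14, and are written 5′ to 3′ on the gene's strand with CACGTG in capitals. They are chr1:19251555-19251854 on the plus strand for MRTO4, chr22:30591861-30592160 on the minus strand for PES1, chr3:51941855-51942154 on the minus strand for RRP9, chr12:101279855-101280154 on the plus strand for UTP20, chr10:68956397-68956696 on the plus strand for DDX21, chr17:2336408-2336707 on the minus strand for TSR1, chr5:176388549-176388848 on the minus strand for NOP16 and chr16:69339522-69339821 on the plus strand for NIP7.
MRTO4: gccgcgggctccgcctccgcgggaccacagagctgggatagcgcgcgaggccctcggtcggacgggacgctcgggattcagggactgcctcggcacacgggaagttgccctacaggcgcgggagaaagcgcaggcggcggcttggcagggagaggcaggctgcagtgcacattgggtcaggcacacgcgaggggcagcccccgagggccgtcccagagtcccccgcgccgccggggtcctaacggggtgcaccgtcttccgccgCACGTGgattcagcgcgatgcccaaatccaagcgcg
PES1: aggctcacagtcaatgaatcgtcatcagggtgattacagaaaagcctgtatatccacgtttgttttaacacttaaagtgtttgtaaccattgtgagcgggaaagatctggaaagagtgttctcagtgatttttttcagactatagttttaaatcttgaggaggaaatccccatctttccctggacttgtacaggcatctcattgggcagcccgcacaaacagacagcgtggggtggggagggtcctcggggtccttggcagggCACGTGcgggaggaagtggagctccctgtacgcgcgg
RRP9: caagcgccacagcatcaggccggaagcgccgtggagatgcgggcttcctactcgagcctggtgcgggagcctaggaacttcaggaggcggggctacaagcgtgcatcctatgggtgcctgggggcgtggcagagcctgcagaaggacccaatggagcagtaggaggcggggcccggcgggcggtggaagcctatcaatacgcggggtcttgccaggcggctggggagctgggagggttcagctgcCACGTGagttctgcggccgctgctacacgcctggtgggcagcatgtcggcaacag
UTP20: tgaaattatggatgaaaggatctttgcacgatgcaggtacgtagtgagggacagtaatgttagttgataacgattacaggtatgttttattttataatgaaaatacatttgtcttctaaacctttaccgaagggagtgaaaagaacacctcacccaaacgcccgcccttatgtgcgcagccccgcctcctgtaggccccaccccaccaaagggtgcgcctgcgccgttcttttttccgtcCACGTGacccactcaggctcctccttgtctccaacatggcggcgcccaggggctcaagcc
DDX21: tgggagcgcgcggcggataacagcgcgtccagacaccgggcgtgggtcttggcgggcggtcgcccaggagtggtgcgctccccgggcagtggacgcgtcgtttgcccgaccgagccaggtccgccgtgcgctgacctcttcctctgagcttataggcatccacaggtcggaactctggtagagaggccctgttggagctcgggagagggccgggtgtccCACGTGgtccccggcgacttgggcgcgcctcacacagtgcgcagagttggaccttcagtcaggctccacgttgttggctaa
TSR1: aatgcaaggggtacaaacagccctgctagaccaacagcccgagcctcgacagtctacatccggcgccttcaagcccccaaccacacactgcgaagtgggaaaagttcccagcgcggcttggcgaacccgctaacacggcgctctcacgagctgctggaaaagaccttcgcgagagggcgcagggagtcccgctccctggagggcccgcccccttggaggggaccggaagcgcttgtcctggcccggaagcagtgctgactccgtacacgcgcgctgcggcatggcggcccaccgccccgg
NOP16: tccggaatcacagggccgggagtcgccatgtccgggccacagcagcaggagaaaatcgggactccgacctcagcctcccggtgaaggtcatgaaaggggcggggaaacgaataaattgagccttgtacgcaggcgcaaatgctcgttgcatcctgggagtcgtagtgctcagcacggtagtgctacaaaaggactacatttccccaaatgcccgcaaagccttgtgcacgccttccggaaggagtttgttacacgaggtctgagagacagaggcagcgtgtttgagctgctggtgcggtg
NIP7: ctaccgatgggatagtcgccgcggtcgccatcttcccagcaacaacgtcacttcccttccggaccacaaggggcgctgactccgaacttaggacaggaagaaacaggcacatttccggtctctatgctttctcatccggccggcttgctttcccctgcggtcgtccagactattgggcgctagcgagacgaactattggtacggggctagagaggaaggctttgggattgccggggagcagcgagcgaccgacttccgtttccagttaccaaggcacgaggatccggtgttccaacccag
The motif begins 15 bases after the start of MRTO4 and 14 after that of PES1. In RRP9 and UTP20 it begins 5 and 10 bases before the start, and in DDX21 it begins 31 bases before the start of the window shown, while another DDX21 window held none. TSR1, NOP16 and NIP7 have no CACGTG in their windows.

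The letters CACGTG read the same on both strands, so 1 search covers both. Of all 27305 genes with a RefSeq promoter 2396 (8.77%) had the motif in such a window, and of the genes tested on the arrays 1264 of 10080 (12.5%) did. Among the listed genes 17 of 33 with a promoter in the table had it (51.5%), and among the tested members 15 of 28 (53.6%). The motif stood in 8 of 13 members called at 10 or 18 h or on the average (61.5%) and in 7 of 15 tested members not called (46.7%). Of the 41 windows of these genes 19 matches were found, and 16 of them began within 50 bases of the start. The motif was present in 5 of 8 small subunit factors, 4 of 9 large subunit factors, 4 of 6 nucleolar regulators, 2 of 3 box C/D proteins, 2 of 4 box H/ACA proteins and 0 of 3 polymerase subunits. A match is a description of these letters and does not show binding.

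MYC mRNA was lower in enzastaurin than in DMSO at each time. The MYC probe set 202431_s_at read 1032, 943 and 1121 in enzastaurin after 4 h, against 1544, 1652 and 1857 in DMSO. After 10 h MYC read 968, 955 and 826 in enzastaurin and 1626, 1524 and 1512 in DMSO. After 18 h MYC read 1273, 954 and 1325 in enzastaurin and 2523, 2362 and 2412 in DMSO. All enzastaurin arrays lay below all DMSO arrays of the same time. Log2 changes were -0.70 (SE 0.11, adjusted p = 8.1e-04) at 4 h, -0.75 (SE 0.11, adjusted p = 1.0e-04) at 10 h and -1.04 (SE 0.11, adjusted p = 6.6e-07) at 18 h. These and the p values below come from limma over 12376 genes with Benjamini-Hochberg adjustment. In such bulk samples less RNA per cell and fewer cells with that RNA cannot be told apart. With array medians subtracted the 4 h change was -0.58 (adjusted p = 0.058).

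Every nucleolar factor called at 10 h, at 18 h or on the average was higher in enzastaurin than in DMSO. At 4, 10 and 18 h 0 were called lower. A gene was called where its adjusted p was under 0.05. At 4 h limma called 0 of 33 members, where 0.558% of all genes tested were called higher and 1.25% lower. At an unadjusted p under 0.05 there were 9 members, all higher, and 5.83% of all genes were higher by that rule. At 10 h 10 members were called higher and 0 lower (23 higher and 0 lower at an unadjusted p under 0.05), where 3.77% of all genes were called higher and 4.69% lower, and 9.50% were higher by the unadjusted rule. At 18 h 7 were called higher and 0 lower (12 higher and 0 lower unadjusted), beside 8.10% of all genes called higher and 7.90% lower, and 14.4% higher unadjusted. The members called at both later times were DDX21, MRTO4, NOP16, PES1 and TSR1. With all probe sets of a gene averaged these were DDX21 and POLR1C, and with array medians subtracted there were 0. On the average over the times 15 members were called higher and 0 lower (19 and 0 unadjusted), with 9.07% of all genes called higher.

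The median log2 change of the 33 members was 0.10 at 4 h, 0.24 at 10 h and 0.11 at 18 h, beside 0.00, -0.02 and 0.00 over all genes tested. Changes above 0 were seen in 27 of 33 members at 4 h, 32 at 10 h and 24 at 18 h, while 50.2%, 46.9% and 50.2% of all genes were above 0. Every enzastaurin array was above every DMSO array for 13 members at 4 h, 22 at 10 h and 12 at 18 h, where 9.17%, 11.8% and 15.4% of all genes showed this. The reverse held for GRWD1 alone, at 18 h. Of the 13 members apart at 4 h, averaging probe sets put RRP12 at -0.34, NOP16 at -0.18, RRP1B at -0.10 and MRTO4 at -0.02. The rest of the 13 stayed above 0 at 4 h. The 4 h counts thus depend on the probe set rule. Subtracting array medians moved the median of all genes at 4 h to 0.12 and that of the members to 0.22. This step shifts every gene by the same amount, so the distance of 0.10 between them could not change and tests nothing.

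**Figure D1:**
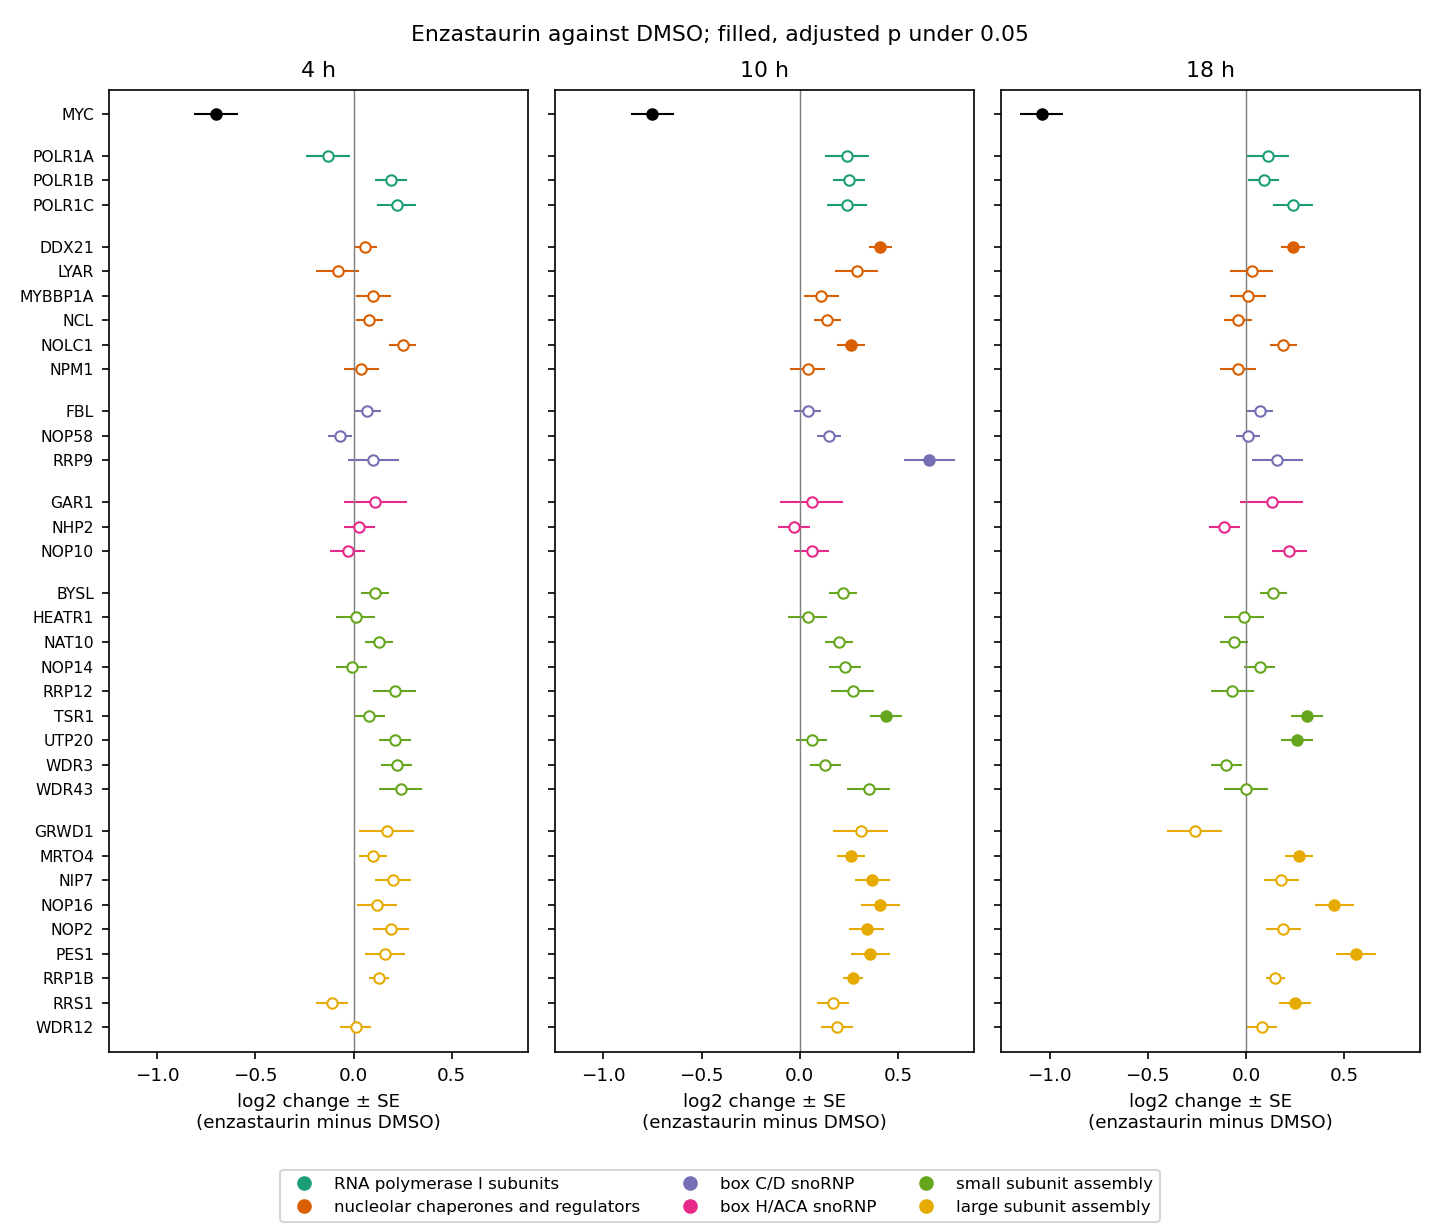
Log2 change (x axis, ± SE from limma) of MYC and the 33 members (y axis, coloured by role), enzastaurin minus DMSO at 4, 10 and 18 h, with 3 arrays a group. Filled points have an adjusted p under 0.05: MYC at all 3 times on the lower side, and 0, 10 and 7 members on the higher side.

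The counts at 10 and 18 h differed when single arrays were left out and with the scaling. Without DMSO 10 h replicate 3, or without enzastaurin 10 h replicate 1, 5 members were called at 10 h in place of 10. Without DMSO 18 h replicate 1, 4 were called at 18 h in place of 7. Shares over all genes were not taken without these arrays, so these counts are not read as results about the members. With array medians subtracted DDX21, RRP9 and TSR1 were called at 10 h and NOP16 and PES1 at 18 h. Under that scaling 1.71% of all genes were called higher at 10 h and 4.53% at 18 h. With probe sets averaged 11 members were called at 10 h and 4 at 18 h, beside 2.45% and 5.58% of all genes called higher.

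On the brightest probe sets RNA polymerase I subunits were not called by limma at any single time. At an unadjusted p under 0.05 there were 2, 3 and 1 of 3 at 4, 10 and 18 h, all higher. POLR1B and POLR1C were called higher on the average. With probe sets averaged POLR1C was called higher at 10 h (0.27, adjusted p = 0.046) and at 18 h (0.27, adjusted p = 0.027). POLR1B, the second largest subunit, read 1572, 1437 and 1593 in enzastaurin and 1313, 1268 and 1440.3 in DMSO after 4 h. After 10 h POLR1B read 2089.5, 1980.3 and 1775 in enzastaurin, against 1642, 1634 and 1634 in DMSO. After 18 h POLR1B read 1739, 1783 and 1643 in enzastaurin and 1702, 1500.4 and 1650.2 in DMSO. The arrays separated at 10 h and overlapped at the other times, and the average log2 change was 0.18 (SE 0.04, adjusted p = 0.008). POLR1C, a subunit shared with RNA polymerase III, read 1434, 1418 and 1765 in enzastaurin after 4 h and 1247, 1335 and 1349.6 in DMSO. After 10 h POLR1C read 1744, 1840.3 and 1509.8 in enzastaurin and 1401, 1569.6 and 1334 in DMSO. After 18 h POLR1C read 1510.5, 1568 and 1308 in enzastaurin and 1154, 1358 and 1204 in DMSO. These groups were apart at 4 h only, and the average change was 0.23 (SE 0.06, adjusted p = 0.0079), with 0.22, 0.24 and 0.24 at the 3 times. POLR1A, the largest and catalytic subunit, had log2 changes of -0.13 (adjusted p = 0.69), 0.24 (adjusted p = 0.23) and 0.11 (adjusted p = 0.58) at 4, 10 and 18 h. Its other probe sets had -0.03 and 0.31 at 4 h.

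Among the nucleolar chaperones and regulators, DDX21 and NOLC1 were called higher in enzastaurin than in DMSO. The other 4 tested members were not called on their brightest probe sets. DDX21 is an RNA helicase of the nucleolus, read on 224654_at. Its intensities after 4 h were 12141, 11417 and 13037 in enzastaurin and 11358, 11696 and 11989 in DMSO. After 10 h DDX21 read 13261, 13396 and 12772 in enzastaurin, against 9646, 9960.3 and 10093 in DMSO. After 18 h DDX21 read 10471, 11571 and 11142 in enzastaurin and 8855, 9613 and 9592 in DMSO. The groups overlapped at 4 h and were apart at 10 and 18 h. DDX21 had log2 changes of 0.06 (adjusted p = 0.75) at 4 h, 0.41 (SE 0.06, adjusted p = 2.0e-04) at 10 h and 0.24 (SE 0.06, adjusted p = 0.0095) at 18 h. Without DMSO 18 h replicate 1 the adjusted p at 18 h was 0.061. The effect at 10 h exceeded that at 4 h by 0.35 (SE 0.09), and this difference was not called (adjusted p = 0.053).

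NOLC1, a chaperone that binds snoRNPs, had all enzastaurin arrays above all DMSO arrays at each time. After 4 h NOLC1 read 7489, 7018 and 8095 in enzastaurin and 5853, 6262 and 6837 in DMSO. After 10 h NOLC1 read 6909, 7107 and 6348 in enzastaurin and 5242, 6073 and 5689.8 in DMSO. After 18 h NOLC1 read 5906, 6429 and 6024 in enzastaurin and 5348, 5443 and 5293 in DMSO. It was called at 10 h only, with 0.26 (SE 0.07, adjusted p = 0.03), beside 0.25 (adjusted p = 0.088) at 4 h and 0.19 (adjusted p = 0.086) at 18 h. The 10 h call was lost in 4 of 6 repeats that each left out 1 array of these groups, with adjusted p up to 0.14.

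Nucleolin (NCL) and nucleophosmin (NPM1), abundant nucleolar RNA-binding proteins, were not called. NCL had log2 changes of 0.08, 0.14 and -0.04 at 4, 10 and 18 h, and NPM1 of 0.04, 0.04 and -0.04. LYAR, a nucleolar zinc finger protein, had a log2 change of 0.29 (adjusted p = 0.12) at 10 h. MYBBP1A, a nucleolar Myb-binding protein, had 0.11 (adjusted p = 0.53) at 10 h. With probe sets averaged, LYAR (0.27, adjusted p = 0.039) and MYBBP1A (0.36, adjusted p = 0.026) were called higher at 10 h. By that rule NCL had 0.33 (adjusted p = 0.06) and NPM1 0.04 (adjusted p = 0.89) at 10 h, and neither was called.

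Of the box C/D proteins, RRP9 was called higher in enzastaurin than in DMSO at 10 h. RRP9 is the protein specific to the U3 snoRNP, and its probe set 204133_at read 2044, 1902 and 1758 in enzastaurin and 1945, 1919.7 and 1472 in DMSO after 4 h. After 10 h RRP9 read 1879, 1661 and 2006 in enzastaurin, against 1216, 1206 and 1076 in DMSO. After 18 h RRP9 read 1478, 1727 and 1336 in enzastaurin and 1063, 1407 and 1613 in DMSO. The groups were apart at 10 h and overlapped at 4 and 18 h, where single DMSO arrays differed widely. The change at 10 h was 0.66 (SE 0.13, adjusted p = 0.0031), the largest of any member at that time, beside 0.10 (adjusted p = 0.82) at 4 h and 0.16 (adjusted p = 0.48) at 18 h. The 10 h call held in each repeat that left out 1 array. The effects at 10 h and 4 h differed by 0.55 (adjusted p = 0.19), and those at 18 h and 10 h by -0.49 (adjusted p = 0.22). The rRNA methyltransferase FBL had log2 changes of 0.07, 0.04 and 0.07, and the core protein NOP58 of -0.07, 0.15 and 0.01, none of them called.

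Of 3 box H/ACA proteins limma called 0 at each time, and NOP10 at 18 h was the single unadjusted p under 0.05. NOP10, a core protein that these particles share with telomerase, had the smallest p of the role at 18 h. After 4 h NOP10 read 16130.3, 19368 and 19019 in enzastaurin and 18506, 16946 and 20070.4 in DMSO. After 10 h NOP10 read 16816, 17191 and 19774 in enzastaurin and 16588, 17315 and 17728 in DMSO. After 18 h NOP10 read 17388, 20697 and 21861 in enzastaurin and 17032, 16661 and 17697 in DMSO. The groups overlapped at every time, and the 18 h change was 0.22 (SE 0.09, adjusted p = 0.12). NHP2 and GAR1, the other core proteins tested, lay between -0.11 (NHP2 at 18 h) and 0.13 (GAR1 at 18 h).

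Of the small subunit factors TSR1 was called higher in enzastaurin than in DMSO at 10 h, and TSR1 and UTP20 at 18 h. TSR1 is a GTPase-like factor of late pre-40S particles, read on 218156_s_at. Its intensities after 4 h were 4211, 4141 and 4259 in enzastaurin and 3458, 4214 and 4308 in DMSO. After 10 h TSR1 read 3951, 3770.4 and 3646 in enzastaurin, against 2651, 2840 and 2869 in DMSO. After 18 h TSR1 read 3060.2, 3382 and 2962 in enzastaurin and 2475, 2669 and 2412 in DMSO. The groups overlapped at 4 h, where 1 DMSO array was below the rest, and were apart afterwards. TSR1 had log2 changes of 0.08 (adjusted p = 0.73) at 4 h, 0.44 (SE 0.08, adjusted p = 8.8e-04) at 10 h and 0.31 (SE 0.08, adjusted p = 0.0074) at 18 h, and neither later call was lost when any 1 array was left out. With its probe sets averaged TSR1 had 0.43 at 10 h (adjusted p = 0.0018) and 0.23 at 18 h (adjusted p = 0.066).

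UTP20, a large scaffold protein of the small subunit processome, had all enzastaurin arrays above all DMSO arrays at each time. After 4 h UTP20 read 2002, 1831 and 1907 in enzastaurin and 1744, 1749 and 1473 in DMSO. After 10 h UTP20 read 1586, 1589 and 1700.2 in enzastaurin and 1557, 1550.4 and 1551 in DMSO. After 18 h UTP20 read 1690.1, 1553 and 1781 in enzastaurin and 1333, 1452 and 1393 in DMSO. The gap was narrow at 10 h, and the call was made at 18 h, with 0.26 (SE 0.08, adjusted p = 0.023), beside 0.21 (adjusted p = 0.23) at 4 h and 0.06 (adjusted p = 0.73) at 10 h. The 18 h call was lost in 4 of 6 repeats that each left out 1 array, with adjusted p up to 0.1.

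On the brightest probe sets BYSL and WDR43 were called on the average alone. BYSL, or bystin, a factor of late small subunit maturation, read 1953, 1982 and 2007 in enzastaurin and 1832, 1773 and 1901 in DMSO after 4 h. After 10 h BYSL read 2261, 1898 and 1972 in enzastaurin and 1675, 1835 and 1725 in DMSO. After 18 h BYSL read 1768, 1744 and 1752 in enzastaurin and 1624, 1638 and 1521 in DMSO. The groups were apart at each time, and the average change was 0.16 (SE 0.04, adjusted p = 0.0088). WDR43, which couples transcription of the precursor to its processing, read 1687, 1152 and 1314 in enzastaurin and 1164, 1214 and 1079.7 in DMSO after 4 h. After 10 h WDR43 read 1484, 1341 and 1164 in enzastaurin and 1080.4, 971 and 1050.4 in DMSO. After 18 h WDR43 read 1079.8, 968 and 1049.8 in enzastaurin and 1077, 1028 and 999 in DMSO. The arrays of WDR43 were apart at 10 h and overlapped at 4 and 18 h, with 1 enzastaurin array at 4 h far above the others, and the average change was 0.20 (SE 0.07, adjusted p = 0.038).

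On the brightest probe sets the other 5 small subunit factors were not called at any time. The rRNA acetyltransferase NAT10 had log2 changes of 0.20 (adjusted p = 0.084) at 10 h and -0.06 at 18 h, and NOP14, a processome protein, of 0.23 (adjusted p = 0.064) and 0.07. RRP12, an export factor, had log2 changes of 0.27 (adjusted p = 0.16) at 10 h and -0.07 at 18 h. WDR3, another processome protein, had log2 changes of 0.22 (adjusted p = 0.2) at 4 h and -0.10 at 18 h, and its effects at these times differed by -0.32 (adjusted p = 0.084). HEATR1, an activator of polymerase I transcription in the processome, stayed between -0.01 and 0.04.

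On the brightest probe sets large subunit factors held most of the calls, 6 of 9 tested members at 10 h and 4 of 9 at 18 h. Of all genes 3.77% and 8.10% were called higher at these times. With probe sets averaged, the large subunit factors called were NIP7 and NOP2 at 10 h and RRS1 at 18 h. The small subunit factors called by that rule were BYSL, NOP14 and TSR1 at 10 h and UTP20 at 18 h. PES1 forms the PeBoW complex with BOP1 and WDR12, and was read on 202212_at. Its intensities after 4 h were 1746, 2066 and 2161 in enzastaurin and 1838, 1667 and 1803 in DMSO. After 10 h PES1 read 1642, 1558 and 1661 in enzastaurin, against 1316, 1406 and 1085 in DMSO. After 18 h PES1 read 1854, 1534 and 1713 in enzastaurin and 1248, 1087 and 1113 in DMSO. The groups overlapped at 4 h and were apart at 10 and 18 h. PES1 had log2 changes of 0.16 (adjusted p = 0.54) at 4 h, 0.36 (SE 0.10, adjusted p = 0.03) at 10 h and 0.56 (SE 0.10, adjusted p = 4.6e-04) at 18 h, the last being the largest of any member at 18 h. The 10 h call was lost in 4 of 6 repeats that each left out 1 array, with adjusted p up to 0.18, and the 18 h call in none. With the other PES1 probe set, which is below the level filter, averaged in, the values were 0.17 at 10 h (adjusted p = 0.63) and 0.43 at 18 h (adjusted p = 0.067), and neither was called. Its partner WDR12 had log2 changes of 0.01, 0.19 (adjusted p = 0.2) and 0.08.

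MRTO4, a factor related to the ribosomal stalk protein, had all enzastaurin arrays above all DMSO arrays at each time. After 4 h MRTO4 read 6656, 6822 and 6626 in enzastaurin and 6251, 5931 and 6594 in DMSO. After 10 h MRTO4 read 6052, 5429.6 and 5342 in enzastaurin and 4682, 4704 and 4612 in DMSO. After 18 h MRTO4 read 4575, 5338 and 5332 in enzastaurin and 4107, 4152 and 4316 in DMSO. Intensities were lower at the later times in both arms. MRTO4 had log2 changes of 0.10 (adjusted p = 0.58) at 4 h, 0.26 (SE 0.07, adjusted p = 0.017) at 10 h and 0.27 (SE 0.07, adjusted p = 0.007) at 18 h. The 10 h call was lost without DMSO 10 h replicate 3 or enzastaurin 10 h replicate 1, with adjusted p up to 0.11. Its other probe set had log2 changes of 0.00 at 10 h and 0.10 at 18 h, and with both averaged MRTO4 was called at neither time (adjusted p = 0.41 and 0.13). At 4 h MRTO4 had -0.02 (adjusted p = 0.95) with both averaged.

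NOP16, a nucleolar protein of pre-60S particles, also had its groups apart at each time. After 4 h NOP16 read 4047, 3938 and 4243 in enzastaurin and 3785, 3646 and 3794 in DMSO. After 10 h NOP16 read 4041, 3722 and 4339.8 in enzastaurin and 3197, 2940.4 and 2952 in DMSO. After 18 h NOP16 read 3818, 5195 and 3462 in enzastaurin and 2951, 3110 and 2949.8 in DMSO. Enzastaurin 18 h replicate 2 was far above the other arrays of its group. NOP16 had log2 changes of 0.12 (adjusted p = 0.67) at 4 h, 0.41 (SE 0.10, adjusted p = 0.013) at 10 h and 0.45 (SE 0.10, adjusted p = 0.0036) at 18 h. The 10 h call was lost in 3 of 6 repeats that each left out 1 array, with adjusted p up to 0.065, and the 18 h call in none. NOP16 has 3 other probe sets, with log2 changes at 10 h of 0.29 on a bright one, -0.47 on a dim one and 0.08 on one below the level filter. With all 4 averaged NOP16 had 0.08 at 10 h (adjusted p = 0.86) and 0.18 at 18 h (adjusted p = 0.52), and neither was called. At 4 h that average was -0.18 (adjusted p = 0.72).

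**Figure D2:**
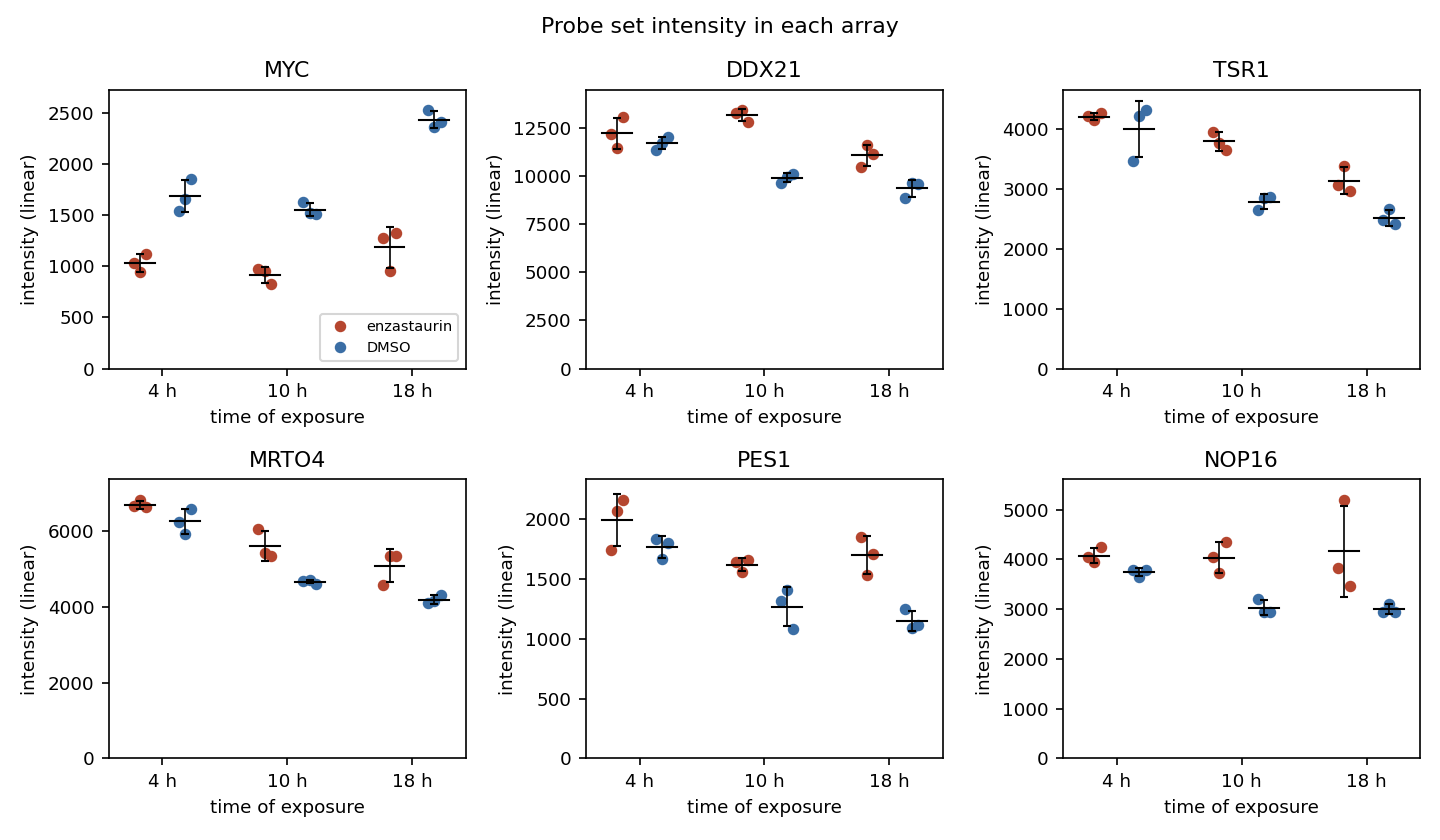
Intensity on a linear scale (y axis) in each of 3 arrays per group after 4, 10 and 18 h (x axis), enzastaurin in red left of DMSO in blue, with mean ± SD in black. MYC is lower in all enzastaurin arrays, DDX21, TSR1 and PES1 are higher in all of them at 10 and 18 h, and MRTO4 and NOP16 at all 3 times.

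NOP2, NIP7 and RRP1B were called higher in enzastaurin than in DMSO at 10 h. NOP2, an rRNA cytosine methyltransferase, read 2259, 2480.2 and 2956 in enzastaurin and 2146, 2112 and 2445 in DMSO after 4 h. After 10 h NOP2 read 2396, 2115 and 2282 in enzastaurin and 1734, 1871 and 1737 in DMSO. After 18 h NOP2 read 2257, 2139 and 2356 in enzastaurin and 1924, 1990.1 and 1994 in DMSO. The groups overlapped at 4 h and were apart later. NOP2 had log2 changes of 0.34 (SE 0.09, adjusted p = 0.015) at 10 h and 0.19 (adjusted p = 0.15) at 18 h, and the call was lost in 3 of 6 repeats that each left out 1 array, with adjusted p up to 0.076. NIP7, a pre-rRNA processing factor, read 3299, 2861 and 3141 in enzastaurin and 2659, 2808 and 2613 in DMSO after 4 h. After 10 h NIP7 read 2902, 2597 and 2367 in enzastaurin and 2218, 1785 and 2079 in DMSO. After 18 h NIP7 read 2202, 2372 and 1926 in enzastaurin and 1883, 2001 and 1826 in DMSO. The groups were apart at 4 and 10 h and overlapped at 18 h. NIP7 had a log2 change of 0.37 (SE 0.09, adjusted p = 0.015) at 10 h, and the call was lost without DMSO 10 h replicate 2 or enzastaurin 10 h replicate 1, with adjusted p up to 0.11.

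RRP1B, a nucleolar protein of large subunit assembly, had its groups apart at each time on its brightest probe set. After 4 h RRP1B read 5502, 5545 and 5727 in enzastaurin and 5160.1, 5012 and 5165 in DMSO. After 10 h RRP1B read 6336, 5989 and 5971 in enzastaurin and 4966, 4968 and 5277 in DMSO. After 18 h RRP1B read 5526, 5742 and 5788 in enzastaurin and 5124, 5282 and 4979 in DMSO. Its replicates lay close together, and it had log2 changes of 0.13 (adjusted p = 0.31) at 4 h, 0.27 (SE 0.05, adjusted p = 0.0029) at 10 h and 0.15 (adjusted p = 0.066) at 18 h. The 10 h call was not lost when any 1 array was left out. Its other probe set had a log2 change of 0.06 at 10 h, and the call was lost with both averaged (0.16, adjusted p = 0.28). At 4 h RRP1B had -0.10 (adjusted p = 0.68) with both averaged.

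RRS1, which helps to load the 5S RNP onto pre-60S particles, was called at 18 h alone. After 4 h RRS1 read 2945, 2754 and 3051 in enzastaurin and 3098, 3297 and 3032 in DMSO. After 10 h RRS1 read 2929, 3301 and 3155 in enzastaurin and 2707, 2788 and 2816 in DMSO. After 18 h RRS1 read 3260.4, 3461 and 3538 in enzastaurin and 2947, 2491 and 3246 in DMSO. At 4 h the groups overlapped with enzastaurin mostly the lower, and at 18 h the lowest enzastaurin array was just above the highest DMSO array. RRS1 had log2 changes of -0.11 (adjusted p = 0.64) at 4 h, 0.17 (adjusted p = 0.22) at 10 h and 0.25 (SE 0.08, adjusted p = 0.04) at 18 h. The 18 h call was lost in 4 of 6 repeats that each left out 1 array, with adjusted p up to 0.25, and the effects at 18 h and 4 h differed by 0.35 (adjusted p = 0.061). GRWD1, a histone chaperone linked to ribosome assembly, had log2 changes of 0.17 (adjusted p = 0.67), 0.31 (adjusted p = 0.19) and -0.26 (adjusted p = 0.22) at 4, 10 and 18 h.

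No change of the effect between times was called for any member by limma. From 4 to 18 h 6 members had an unadjusted p under 0.05, 4 with a larger and 2 with a smaller value at 18 h, where 21.0% of all genes reached that p and 7.78% were called. Without DMSO 4 h replicate 1, DMSO 18 h replicate 3 or enzastaurin 18 h replicate 3 there was 1 call from 4 to 18 h, on the higher side. Shares over all genes were not taken for these fits. From 4 to 10 h there were 8 by the unadjusted rule, all larger at 10 h, beside 12.8% of all genes, and 1.41% of all genes were called. From 10 to 18 h there were 5, all smaller at 18 h, beside 13.8% of all genes, and 2.23% were called. A member called at one time and not at another is therefore not shown to differ between the times. The MYC effect at 18 h minus that at 4 h was -0.35 (adjusted p = 0.19).

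Of 17 members 30 other probe sets passed the level filter, read from the same RNA on the same arrays. Their changes were above 0 for 20 at 4 h, 29 at 10 h and 21 at 18 h, with medians of 0.08, 0.29 and 0.09. The share over all such other probe sets was not taken, so these counts have no baseline. DDX21 had log2 changes of 0.50 at 10 h and 0.30 at 18 h on its other probe set. TSR1 had log2 changes of 0.35, 0.37 and 0.58 at 10 h on 3 others, and NOLC1 of 0.29 and 0.51 on 2 others. MYBBP1A had log2 changes of 0.60 at 10 h on a dimmer probe set, against 0.11 on the brightest. Other probe sets of MRTO4 and RRP1B and a dim one of NOP16 had lower values at 10 h than the brightest, as given above.

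Members also moved over time within each arm. In DMSO at 18 h against 4 h, 14 of 33 were called lower and 1 higher, where 9.00% of all genes were lower and 11.3% higher, and the median change was -0.18 against 0.03 over all genes. TSR1 fell by 0.66 on the log2 scale in DMSO (SE 0.08, adjusted p = 3.9e-06), LYAR by 0.65 (adjusted p = 2.7e-04), PES1 by 0.62 (adjusted p = 1.7e-04) and MRTO4 by 0.58 (adjusted p = 3.4e-06). POLR1B was the member called higher, by 0.27 (adjusted p = 0.017) on its brightest probe set. Its other probe sets had 0.05, 0.07 and -0.29. MYC rose in the same DMSO arrays by 0.53 (SE 0.11, adjusted p = 0.0013). Much of the fall was present by 10 h, when 13 members were lower and 1 higher than at 4 h in DMSO, beside 6.61% and 11.5% of all genes. Between 10 and 18 h in DMSO limma called 0 members, beside 5.32% of all genes, and 4 members had an unadjusted p under 0.05, beside 19.8%. With array medians subtracted 7 members were lower at 18 h than at 4 h in DMSO and 0 higher, beside 5.74% and 6.67% of all genes. With probe sets averaged 10 were lower and 0 higher, beside 6.65% and 6.99% of all genes. NOLC1, NOP16, PES1 and RRP9 were not called by that rule. Without DMSO 4 h replicate 2, or without DMSO 18 h replicate 1, 9 were called in place of 15. Shares over all genes were not taken without these arrays.

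In enzastaurin at 18 h against 4 h, 13 members were called lower and 1 higher, where 13.6% of all genes were lower and 16.4% higher. The median change was -0.18, against 0.04 over all genes. NIP7 fell by 0.52 on the log2 scale in enzastaurin (adjusted p = 2.3e-04), LYAR by 0.53 (adjusted p = 9.7e-04) and TSR1 by 0.42 (adjusted p = 2.7e-04). RRS1 rose by 0.23 (adjusted p = 0.036). With array medians subtracted 20 members were lower at 18 h than at 4 h in enzastaurin and 0 higher, beside 17.1% and 7.59% of all genes. At 10 h 4 members were lower and 1 higher than at 4 h in enzastaurin, beside 6.92% and 10.2% of all genes, and at 18 h 6 were lower than at 10 h, beside 5.64%. The members LYAR, MRTO4, MYBBP1A, NIP7, NOLC1, NOP14, NOP58 and TSR1 were called lower at 18 h than at 4 h in both arms. The share of all genes called lower in both arms was not taken, so this overlap has no baseline. With probe sets averaged NOLC1 was called in neither arm. MYC had a log2 change of 0.18 (adjusted p = 0.22) in enzastaurin from 4 to 18 h.

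The effect at 18 h and the course in DMSO use the same DMSO 18 h arrays, so their values are given side by side only. PES1 had 0.56 for enzastaurin against DMSO at 18 h, -0.22 for 18 h against 4 h in enzastaurin and -0.62 for 18 h against 4 h in DMSO. The same values for TSR1 were 0.31, -0.42 and -0.66. For NOP16 they were 0.45, 0.01 and -0.32, and for MYC -1.04, 0.18 and 0.53. Set against the mean of DMSO at 4 h, the median level of the 33 members in enzastaurin was 0.10, 0.06 and -0.06 at 4, 10 and 18 h on the log2 scale, and in DMSO -0.12 and -0.18 at 10 and 18 h. MYC stood at -0.70, -0.87 and -0.51 in enzastaurin, and at -0.11 and 0.53 in DMSO.

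**Figure D3:**
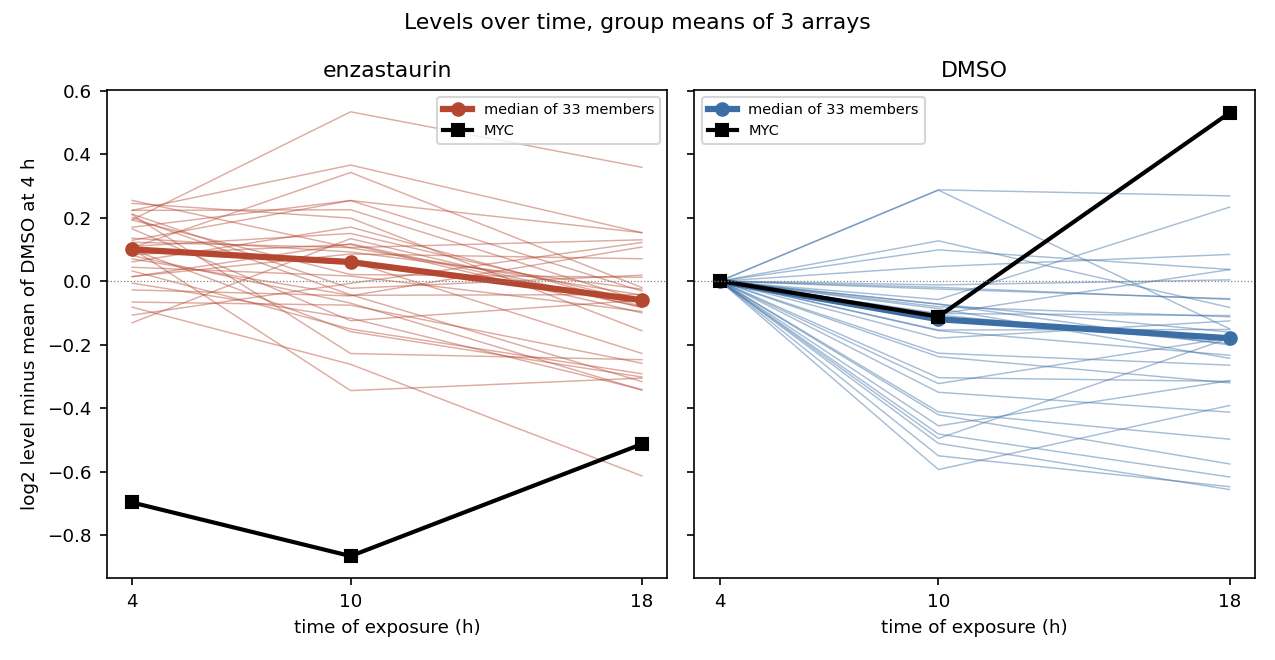
Log2 level minus the mean of DMSO at 4 h (y axis) against time of exposure in hours (x axis), enzastaurin left and DMSO right, with group means of 3 arrays. Thin lines are the 33 members, the thick coloured line is their median (0.10, 0.06 and -0.06 in enzastaurin, 0.00, -0.12 and -0.18 in DMSO), and the black line is MYC, below the median throughout in enzastaurin and above it at 18 h in DMSO.

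The rest of the pathway was read from 6 lists that hold no member. Of all genes tested 0.558%, 3.77% and 8.10% were called higher at 4, 10 and 18 h, and 1.25%, 4.69% and 7.90% lower. Of 46 other small subunit factors tested 2 were called higher at 4 h, 14 at 10 h and 6 at 18 h, and 0 lower at any of these times. UTP23 was higher by 0.49 (SE 0.07, adjusted p = 1.7e-04) at 10 h and IMP4, a U3 snoRNP protein, by 0.42. At that time NOC4L was higher by 0.50 and the helicase DDX10 by 0.39. At 18 h LTV1, an assembly factor of pre-40S particles, was higher by 0.59 (SE 0.12, adjusted p = 0.0015). UTP3 was higher by 0.46, RCL1 by 0.44 and KRR1 by 0.28 at 18 h. At 4 h NOB1 was higher by 0.39 (SE 0.08, adjusted p = 0.014) and UTP15 by 0.50. NOB1 is the nuclease that makes the last cut of the small subunit RNA. The share of these 46 called higher was 4.35%, 30.4% and 13% at 4, 10 and 18 h, and they had median changes of 0.05, 0.22 and 0.09 at the 3 times.

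Of 46 other large subunit factors tested 2 were higher at 4 h, 10 at 10 h and 7 at 18 h, with 2 lower at 18 h. MAK16 was higher by 0.42 at 10 h and by 0.42 (SE 0.07, adjusted p = 1.2e-04) at 18 h. The export adaptor NMD3 was higher by 0.37, SDAD1 by 0.48 and URB2 by 0.41 at 10 h. At 18 h ZNF622 was higher by 0.53 and DDX24 by 0.28, while RPF1 was lower, with -0.26 (SE 0.06, adjusted p = 0.004). At 4 h NOC2L was higher by 0.39 and DDX56 by 0.28. The share of this list called higher was 4.35%, 21.7% and 15.2%, and its median changes were 0.06, 0.22 and 0.12.

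The remaining lists held few calls, among 17, 14, 11 and 52 genes tested. Of 17 genes of RNA polymerase I and rDNA transcription, POLR1E was higher at 10 h by 0.26, and at 18 h POLR1D was higher by 0.20 and POLR2K lower, with -0.20. Of 14 genes of the exosome and rRNA trimming, the exosome subunit EXOSC6 was higher by 0.28 at 10 h and 0.59 (SE 0.09, adjusted p = 5.7e-05) at 18 h. Of 11 snoRNP assembly genes NUFIP1 and SHQ1 were higher at 18 h, by 0.38 and 0.26. The shares of these lists called higher, in this order, were 5.88%, 7.14% and 0% at 10 h. At 18 h they were 5.88%, 7.14% and 18.2%. Of all genes 3.77% and 8.10% were called higher at these times, and each list share rests on few genes. Of 52 cytosolic ribosomal protein genes limma called 0 at 4, 10 and 18 h (1, 0 and 0 at an unadjusted p under 0.05), and their median changes were 0.00, 0.04 and -0.03. In DMSO at 18 h against 4 h, 13 of the other small subunit factors were lower and 0 higher, 12 of the other large subunit factors were lower and 1 higher, and 0 of the ribosomal protein genes were called, where 9.00% of all genes were lower and 11.3% higher. CACGTG stood in the promoter windows of 16 of 40 other small subunit genes (40%), 12 of 44 other large subunit genes (27.3%) and 4 of 62 ribosomal protein genes (6.45%).

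**Figure D4:**
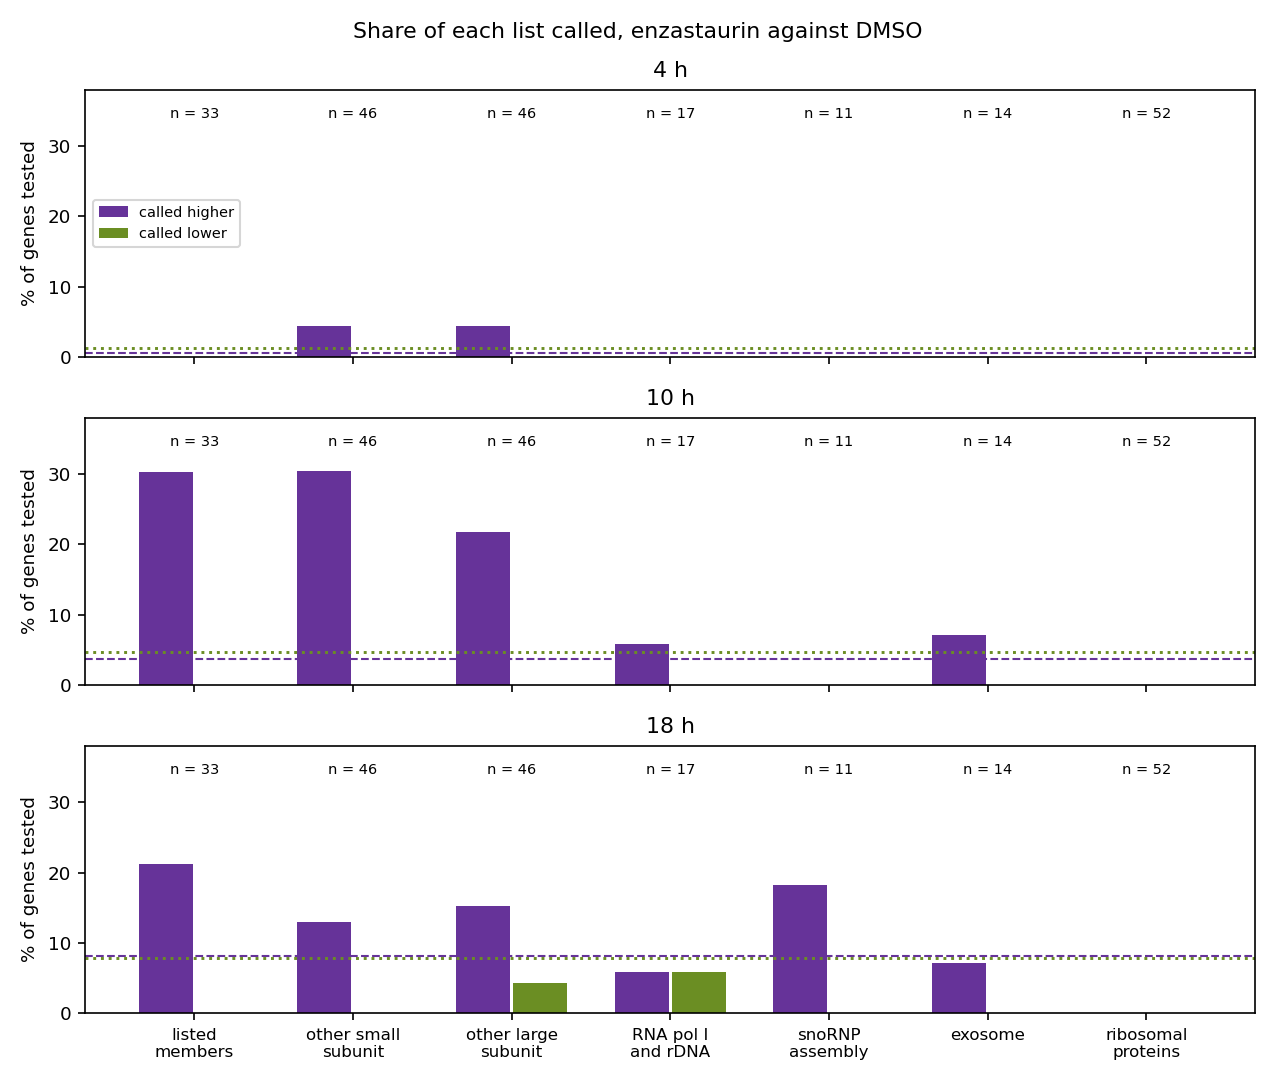
Share of the tested genes of each list in % (y axis) called higher or lower in enzastaurin against DMSO at 4, 10 and 18 h, with n tested above each list (x axis). The dashed and dotted lines are the shares over all 12376 genes called higher and lower (3.77% and 4.69% at 10 h), and the ribosomal protein genes have no bar at any time.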

How the data were processed

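Total RNA of U251 cells was measured on 18 arrays, 3 in each of 6 groups taken from the sample titles. The deposited values are intensities on a linear scale, made by the authors with GCOS 1.2, per the submitters' processing notes; they run from 0.1 to 63584.9, and the mean trimmed by 2% lies between 498.1 and 498.4 in each array. No detection calls were used here. Of 54613 probe sets 41091 had 1 gene symbol in the platform annotation, 1801 several and 11721 none, and symbols were updated to RefSeq names. One probe set was kept per gene, the brightest over 18 arrays, if its mean level reached the median of all probe sets (102.0), which left 12376 genes. An offset of 16 was added before log2, and the values were fitted with limma 3.58.1 (R 4.3.3), 1 mean per group, moderated with a trend, and p values were adjusted by Benjamini-Hochberg over all genes of a comparison. Only the limma fit of enzastaurin against DMSO at 18 h was tested on simulated data, with shifts larger than most member changes. The choice of probe sets, the level filter and the other comparisons were not tested in this way. The members, lists and tests were chosen with earlier results of these data known. Every member is named, with each array's value for MYC, for called members and for the member of each role with the smallest p at 18 h; of other lists up to 4 called genes with the smallest adjusted p are named. Nothing in the labels says whether the 3 arrays of a group came from separate cultures, and the p values thus describe only the spread among these arrays, possibly technical. Arrays with the same replicate number had correlations of -0.133 to 0.1857 in their deviations from the group means and were not taken as pairs. Alternatives changed the offset, filter, scaling, probe set rule, weights, groups fitted, replicate block and arrays left out. Figures were drawn with matplotlib 3.10.9.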

Additional observations from a re-analysis of the deposited data

How the results depend on the processing

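No called value of MYC or of a member at 4, 10 or 18 h changed sign under any alternative. Among the alternatives, shares over all genes are given above for subtracted array medians and averaged probe sets only. Counts under the other alternatives have no such share beside them and are not read as results about the members. The count of members called at 10 h was 10, and it was 3 with array medians subtracted (DDX21, RRP9 and TSR1), 19 with array weights and 5 to 12 leaving out 1 array. At 18 h it was 7, and it was 2 with array medians subtracted (NOP16 and PES1), 4 with probe sets averaged per gene, 4 with only the groups compared in the fit, and 4 to 7 leaving out 1 array. For DMSO at 18 h against 4 h the 15 calls became 7 with array medians subtracted and 9 to 11 leaving out 1 array. The change of the effect from 4 to 18 h had 1 call with quantile normalization, 1 without both arrays of lowest weight (enzastaurin 10 h replicate 3 and enzastaurin 18 h replicate 3, a setting added after seeing the data) and 0 to 1 leaving out 1 array. Leaving out 1 array gave 0 calls at 4 h, 14 to 16 on the average and 12 to 14 for enzastaurin at 18 h against 4 h. The MYC change at 4 h was -0.58 with array medians subtracted (adjusted p = 0.058), and leaving out 1 array it was -0.76 to -0.63 at 4 h, -0.80 to -0.68 at 10 h and -1.13 to -0.90 at 18 h. With the replicate block 0 members were called at 4 h, 11 at 10 h, 7 at 18 h, 15 on the average, 13 for DMSO over time, 14 for enzastaurin over time and 0 for the change of the effect, and the MYC calls stood at -0.70, -0.75 and -1.04. Among single members over all settings and the 3 times, 1464 values kept their side of the threshold, 57 lost a call and 30 gained one. The causes were not tested.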
